A study of Mus musculus with 3 samples.

Results

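The 266 regions described here are ETO2 binding peaks that were called at gene promoters in only one of the 2 ChIP-seq libraries of the series. They were selected by their position and by the peak calls themselves. Each was a replicate 1 peak that overlapped no replicate 2 peak by even 1 bp, and its midpoint lay within 1 kb of a transcription start site of a protein-coding gene. Replicate 1 held 2335 peaks and replicate 2 held 1873. Of the replicate 1 peaks, 1332 (57.0%) had no replicate 2 peak, and 266 of these were at promoters. A further 69 replicate 1 promoter peaks did overlap a replicate 2 peak and are called shared promoter peaks below, and the other 1066 replicate 1-only peaks are called distal.

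Both libraries came from FLK1+ mesoderm sorted from embryoid bodies, the aggregates that mouse embryonic stem (ES) cells form as they differentiate. FLK1, the receptor of vascular endothelial growth factor, marks mesoderm that can give blood, vessels and heart. The ES cells were wild type, of strain C57Bl/6 X Sv129, and the labels name the Santa Cruz antibody sc-9741x against ETO2 for both libraries. Whether the libraries came from separate immunoprecipitations was not settled. The study lists more reads for replicate 1 than for replicate 2. A peak of replicate 1 only may mark a difference between cultures, between immunoprecipitations, in read depth or between peak calls. These cannot be told apart here. The labels give day 4 of embryoid body culture, as do the study's methods for the ETO2 ChIP, whereas the design text gives day 3.5. Replicate 1 was called against an input and replicate 2 without one, so their calls did not rest on the same background, and the part of this difference in the calls was not tested. Each library is a single sample. The absence of a replicate 2 peak therefore rests on 1 library, and no peak has a spread between replicates. The study asked how the blood transcription factor SCL and its partners act on chromatin in mesoderm before blood forms, and ETO2 is one of these partners.

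ETO2, encoded by Cbfa2t3, is a co-repressor of the ETO family that does not read DNA sequence by itself. It is brought to chromatin by DNA-binding partners, above all SCL with its E protein partners, which bind E-boxes, together with a GATA factor. Most housekeeping genes start from promoters rich in CpG dinucleotides, and many of these fire in both directions, while tissue-specific genes more often start from CpG-poor promoters. ZNF143 and THAP11 are general promoter factors that read a common element, and GABPA is an ETS factor of CpG-rich promoters.

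The promoters fell into types that can be seen in the sequence under the summit, the base at which the fragments of a peak pile up highest. Each sequence below is the 100 bp centred on a summit, read 5′ to 3′ on the plus strand of mm9, from a window free of annotated exons. The first 3 are those of the GATA-bearing peaks with the highest fold enrichment, which are all CpG-poor, and the capitals mark GATA preceded by A or T and followed by A or G (WGATAR), on either strand.
Lrrc27, chr7:146420624-146420723: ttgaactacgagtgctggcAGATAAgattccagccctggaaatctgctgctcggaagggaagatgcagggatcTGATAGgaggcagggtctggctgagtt
Nfe2, chr15:103082190-103082289: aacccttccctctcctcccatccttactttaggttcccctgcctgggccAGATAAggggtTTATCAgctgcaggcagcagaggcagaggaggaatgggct
Pkhd1l1, chr15:44289653-44289752: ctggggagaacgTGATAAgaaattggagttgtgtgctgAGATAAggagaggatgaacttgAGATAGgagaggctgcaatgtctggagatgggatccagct
The next 3 lay between genes that start in opposite directions, namely Tmem43 with Chchd4, Tada3 with Arpc4 and Gmpr2 with Nedd8. They are the exon-free two-way promoters with the highest fold enrichment. Here the capitals mark a different element, ACTAC followed 4 bases later by CCC on either strand, which was searched for only after these sequences had been read. The Tada3 window holds no exact match.
Tmem43, chr6:91423568-91423667: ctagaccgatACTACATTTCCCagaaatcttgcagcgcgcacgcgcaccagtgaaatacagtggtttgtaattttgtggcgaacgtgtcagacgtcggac
Tada3, chr6:113327949-113328048: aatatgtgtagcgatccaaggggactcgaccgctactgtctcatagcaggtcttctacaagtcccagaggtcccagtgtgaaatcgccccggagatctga
Gmpr2, chr14:56290945-56291044: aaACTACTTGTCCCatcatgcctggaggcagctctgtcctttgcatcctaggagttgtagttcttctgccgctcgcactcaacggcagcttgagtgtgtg
Rnf44 had the only one of the 266 summit windows with the ETS letters CCGGAAGT, marked in capitals beside the same spaced element, and Prcc and Btrc were the one-way promoters with the element and the highest fold enrichment.
Rnf44, chr13:54795876-54795975: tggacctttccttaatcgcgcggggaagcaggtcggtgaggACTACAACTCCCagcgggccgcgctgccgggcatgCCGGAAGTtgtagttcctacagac
Prcc, chr3:87689701-87689800: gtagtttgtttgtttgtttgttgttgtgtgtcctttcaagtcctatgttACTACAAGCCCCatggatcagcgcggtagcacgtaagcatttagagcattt
Btrc, chr19:45438061-45438160: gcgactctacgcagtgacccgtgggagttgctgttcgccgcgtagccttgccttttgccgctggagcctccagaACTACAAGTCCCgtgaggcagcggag
In the 300 bp around the summit, the ratio of observed to expected CpG was 0.131 at Lrrc27, 0.0452 at Nfe2 and 0.155 at Pkhd1l1, so few CpG dinucleotides flanked these GATA motifs.

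Within the 1 kb that the selection allowed, summits gathered at the start site. They lay 15.5 bp upstream of it at the median, 138 (51.9%) of them upstream and 128 at or downstream of it. Of the 266 summits, 96 (36.1%) lay within 100 bp of the start site, 165 (62.0%) within 250 bp and 204 (76.7%) within 500 bp. The start site nearest to the midpoint, to which each peak was assigned, was that of a protein-coding transcript at 217 peaks and of another transcript of a protein-coding gene at 49. It was the most upstream start of its gene at 143 peaks and lay over 1 kb downstream of it at 57, as at Lrrc27, where an internal start lay 20955 bp inside the gene. By annotation, 91 midpoints were intronic, 75 intergenic, 57 in an untranslated region, 32 in a coding exon and 11 in an exon of another transcript.

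**Figure D1:**
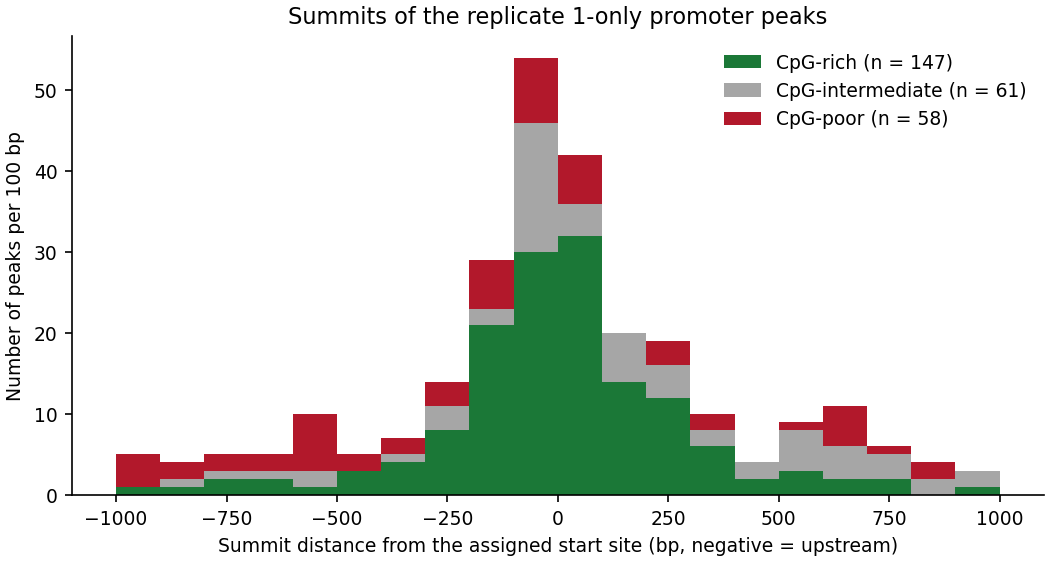
Number of replicate 1-only promoter peaks in 100 bp bins of summit distance from the assigned start site (bp, negative upstream), stacked by CpG class. CpG-rich peaks (147) pile up near the start site, whereas the 58 CpG-poor peaks spread over the whole 1 kb on either side.

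These were modest peaks. Fold enrichment, which the authors' peak caller gave as the ratio between scaled fragments and the local background at the summit, ranged from 2.24 to 10.8 (median 3.99). The number of ChIP fragments at the summit, recovered from the deposited values, ranged from 13 to 55 (median 22), over a median local background of 6.66 fragments on the scale of the input. The lowest background of any replicate 1 peak was 4.06. Every replicate 2 peak had at least 18 fragments, against at least 12 for replicate 1. The part of this higher floor in the absence of replicate 2 peaks was not tested. Shared promoter peaks had a median of 35 fragments, a median fold enrichment of 5.95 and a median width of 332 bp, against 235.5 bp for the replicate 1-only peaks. Distal replicate 1-only peaks had the same median of 22 fragments over a median background of 5. These values entered the selection through the peak calls, so they are given without a test.

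The highest fold enrichments were at Lrrc27 (10.8, 42 fragments), Nfe2 (10.5, 53 fragments), Grb10 (9.85, 44 fragments), March8 (9.49, 35 fragments) and Pkhd1l1 (8.96, 33 fragments). Nfe2 encodes the blood-specific subunit of the factor NF-E2, Grb10 an adaptor of insulin receptor signalling and March8 a membrane-bound ubiquitin ligase. Oit3 (8.78), Prcc (8.31), 2410004B18Rik (7.02), Acsl6 (7.01) and Il1rl1 (6.97) completed the first 10. Acsl6 encodes an acyl-CoA synthetase and Il1rl1 the receptor of interleukin 33. Of these 10 promoters, Grb10 and 2410004B18Rik were CpG-rich, Prcc was intermediate and the rest were CpG-poor. Several were internal starts. Besides those of Lrrc27 and Nfe2, the assigned starts of Grb10, March8, Oit3 and Acsl6 lay 9879 to 12868 bp downstream of the most upstream one. At Nfe2, the peak at chr15:103082087-103082422 lay in an intron, 122 bp upstream of an internal start site, and the gene also had a shared promoter peak. Nfe2 was 1 of 7 genes with both kinds of peak, the others being Ablim1, Ccrl2, Ddc, Lrpprc, Lrrn4 and Nfe2l2.

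Some peaks lay close to the limits of the selection. The midpoints nearest to the 1 kb limit were those of 2410004B18Rik at 967 bp, Arhgef40 at 931 bp and Phf12 at 931 bp, and just outside it lay the distal peaks nearest to Vangl1 at 1011 bp, Amotl2 at 1060 bp and Pfkfb4 at 1071 bp. The closest replicate 2 peaks were 143 bp from the peak of Ccrl2, 474 bp from that of Lrrn4 and 930 bp from that of Nfe2l2. On the other side of that limit, the smallest overlaps that made a promoter peak shared were 107 bp at Stk25, 134 bp at Nsmaf and 135 bp at Ccdc19. Only 2 of the 266 peaks had a replicate 2 peak within 500 bp and 18 within 10000 bp, and the median distance to the nearest one was 377 kb. Most of the selected peaks were thus far from any replicate 2 call.

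CpG content differed between these promoters and those of the shared peaks. A promoter was called CpG-rich where some 500 bp window near the start site had a ratio of observed to expected CpG above 0.75 and a GC content above 55%, and CpG-poor where no window exceeded a ratio of 0.48. By this measure the promoters of 147 of 266 peaks (55.3%, 95% Wilson interval 49.3 to 61.1) were CpG-rich, 61 (22.9%) intermediate and 58 (21.8%) CpG-poor. Peaks were counted, not distinct promoters. At Fam110c, Ifrd2, Lgals3bp, Llgl2, Rnf44 and Zfp697 separate peaks had the same assigned start site, which entered once for each peak. Only 12 of 69 shared promoter peaks (17.4%, 10.2 to 28.0) were at CpG-rich promoters and 41 (59.4%) at CpG-poor ones. The difference in the CpG-rich share was 37.9 percentage points (25.7 to 47.1, 2-sided Fisher's exact test over peaks, adjusted p = 3.12e-08 over 5 differences). The 300 bp around the summits had a median GC content of 62.8% and a median observed to expected CpG of 0.748, against 52.7% and 0.256 for shared promoter peaks and 49.7% and 0.181 for distal replicate 1-only peaks. Among all protein-coding genes, 34.2% had a CpG-rich promoter at their most upstream start site. Of all bases within 1 kb of a start site, 21.7% belonged to CpG-rich ones.

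CpG content also moved with the local background. At CpG-rich promoters the median background was 7.84 fragments and the median fold enrichment 3.69, and at CpG-poor promoters they were 5.03 and 4.71. Both groups had a median of 22 fragments at the summit. The part of the background in the selection of CpG-rich promoters was not tested. CpG-rich peaks also sat closer to the start, at a median of 143 bp against 373.5 bp.

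Start sites in both directions were found at the promoters of 30 of 266 peaks (11.3%, 8.02 to 15.6). They were counted where another protein-coding gene started on the opposite strand within 1 kb upstream. The start sites of a pair were 55 to 895 bp apart (median 196.5). Two-way promoters made up 2 of 69 (2.90%) shared promoter peaks, a difference of 8.38 percentage points (0.595 to 13.2, Fisher's exact test, adjusted p = 0.0467). That call was lost when genes of any type could be the partner (exact test, adjusted p = 0.0828) and with a promoter limit of 0.5 kb (adjusted p = 0.104). All protein-coding genes had a two-way start in 9.06% of cases, within the interval of the selected peaks, whereas 3.16% of bases near start sites belonged to two-way promoters. The share of genes is in another unit, since both genes of a pair can enter it, whereas each peak entered with 1 assigned start. Of the 30, 26 were CpG-rich and 1 held a GATA motif. The highest fold enrichments among them were at Tprkb with Cml1 (5.49, 21 fragments), I830134H01Rik with Cep55 (5.20, 38 fragments) and Tmem43 with Chchd4 (4.93, 47 fragments). In the Tprkb window, 62.3% of 24-base words were unique in the genome. Cep55 encodes a protein of the final step of cell division, Chchd4 one of protein import into mitochondria.

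GATA motifs stood at the summits of a minority. WGATAR occurred within the 100 bp summit window of 62 of 266 peaks (23.3%, 18.6 to 28.7), against 10.9% of windows centred 500 bp to either side and 7.75% of windows at the start of all protein-coding genes. Of 19 motifs searched on both strands, it was 1 of 2 called higher at summits than in both flanks (2-sided exact McNemar test, adjusted p = 0.00206). With flanks 1000 bp away, where WGATAR was found in 15.8% and 13.9% of windows, the adjusted p was 0.169, and with promoters limited to 0.5 kb it was 0.297. The other motif called was CTG followed after 8 to 10 bases by GATA, the spacing of SCL complexes, at 36 summits (13.5%, 9.94 to 18.2) against 1.88% of flanks and 1.43% of all promoters (exact McNemar test, adjusted p = 1.49e-05). Of these 36, 30 also held WGATAR. CTG with GATA at this spacing was at 32 of 69 shared promoter summits (46.4%, 35.1 to 58.0). At distal replicate 1-only summits its share was 27.5% (24.9 to 30.2). These differences were not tested. The reversed letters of WGATAR, counted as a control, were at 5.26% of summits and 9.02% of flanks.

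GATA content differed in count between the CpG classes, for which no test was made. WGATAR was at 36 of 58 CpG-poor summits (62.1%, 49.2 to 73.4) against 16.4% of their flanks, at 16 of 61 intermediate ones (26.2%) against 10.7%, and at 10 of 147 CpG-rich ones (6.80%, 3.74 to 12.1) against 8.84%. Promoters of all genes in these classes held it in 13.6%, 5.33% and 2.48% of start windows. By position, it was at 28 of 62 summits over 500 bp from the start site (45.2%, 33.4 to 57.5) and at 11 of 96 within 100 bp (11.5%, 6.52 to 19.4). Of peaks assigned to a protein-coding transcript, 42 of 217 (19.4%) held it. Of those assigned to another transcript of a protein-coding gene, 20 of 49 (40.8%) did. Peaks with WGATAR had a median fold enrichment of 4.61 against 3.77 without it.

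Fewer summits held WGATAR than in other peaks of the same library. The share was 58.0% at shared promoter peaks, a difference of −34.7 percentage points (−46.5 to −21.7, Fisher's exact test, adjusted p = 1.93e-07), and 66.4% at distal replicate 1-only peaks, a difference of −43.1 (−48.5 to −36.9, adjusted p = 1.30e-36). Shared promoter peaks had a median of 35 fragments, and replicate 1-only peaks a median of 22, both at promoters and distal. Among replicate 1-only promoter peaks, WGATAR was at 25 of 71 summits with 28 or more fragments (35.2%). It was at 14 of 83 with 19 or fewer (16.9%). The part of peak strength in these differences was not tested. The difference from shared promoter peaks was also taken within each CpG class, a split chosen after the data were seen. Whether it differed between the classes was not tested. At CpG-poor promoters WGATAR was at 62.1% of replicate 1-only and 63.4% of shared summits, a difference of −1.35 points (−19.6 to 17.7, adjusted p = 1 by Fisher's exact test over 3 classes). At CpG-rich promoters the shares were 6.80% and 41.7% (5 of 12), a difference of −34.9 points (−61.4 to −11.9, exact test, adjusted p = 0.00605), and at intermediate promoters the difference was −30.0 points (−52.7 to −3.92, adjusted p = 0.0522).

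**Figure D2:**
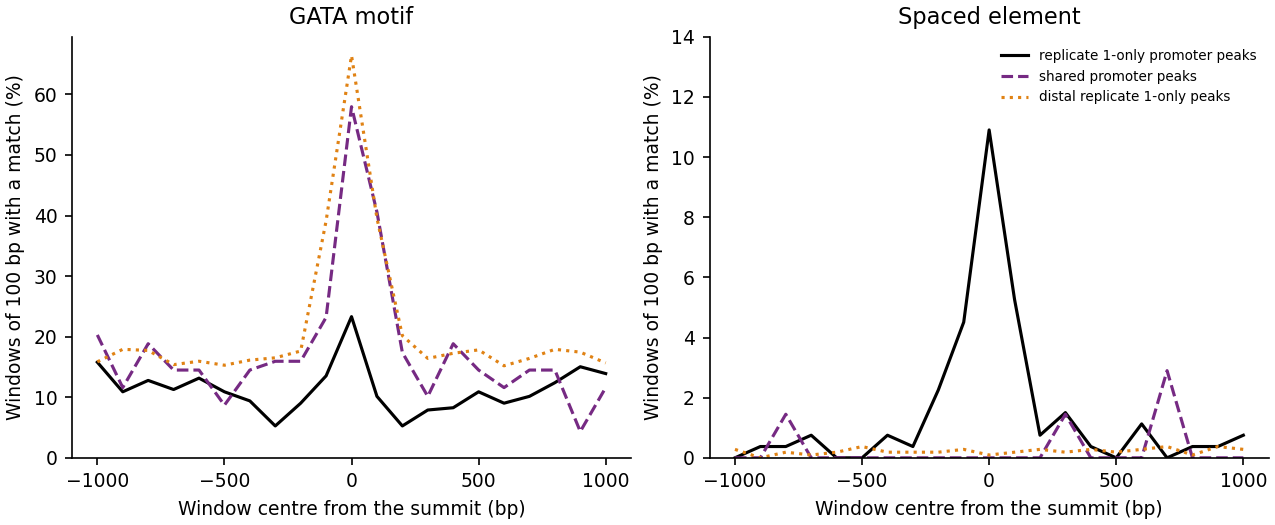
Share of 100 bp windows (%) with a match to the GATA motif WGATAR (left) or to the spaced element (right) against the distance of the window from the summit (bp), for 266 replicate 1-only promoter peaks, 69 shared promoter peaks and 1066 distal replicate 1-only peaks. At the summit the GATA share is 23.3% in the replicate 1-only promoter peaks and 66.4% in the distal ones, and the share of the spaced element is 10.9% and 0.0938%.

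The usual elements of CpG-rich promoters were not called at the summits. The windows of all promoters were centred on the most upstream start site, and those of the peaks on the summit. Summits lay 179.5 bp from the assigned start site at the median, so shares of summits and of all promoters are for unlike positions. The GC box GGGCGG of SP and KLF factors was at 19.2% of summits, 11.7% of flanks and 27.2% of all promoters, with all CpG classes pooled in each share. It was at 41 of 147 CpG-rich summits (27.9%, 21.3 to 35.6), 11.5% of intermediate and 5.17% of CpG-poor ones. The CACCC box CCNCNCCC was at 20.3% of summits, 19.4% of flanks and 29.5% of all promoters. The CCAAT box of NF-Y was at 5.64% of summits, 10.5% of flanks and 13.7% of all promoters. The ETS letters CCGGAAGT, read by GABPA, were at 1 summit (0.376%, 0.0664 to 2.10), against 3.10% of all promoters, and at none of the 69 shared promoter summits (difference 0.376 percentage points, Fisher's exact test, adjusted p = 1). The short ETS core AGGAA was at 30.5% of summits and 28.6% of flanks. NRF1 letters GCATGCGC were at 3 summits and 1.74% of all promoters, and YY1 letters AANATGGCG at none, which allows up to 1.13%, against 2.07% of all promoters. CRE letters TGACGTCA were likewise at no summit and at 1.27% of all promoters. The USF and MYC E-box CACGTG, the E2F letters GGCGGGAA, the letters TCTCGCGA and the TATA letters TATAAA were each at 1 summit. General E-boxes (CANNTG) were at 25.2% of summits and 32.7% of flanks, their form CAGCTG at 7.14% and 3.95%, and RUNX letters TGTGGT at 4.51% and 5.64%. None of these 15 motifs, nor the control, passed the test, the smallest adjusted p being 0.136 for TATAAA, and a motif that did not pass may still differ by an amount that 266 windows could not show.

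The ZNF143 letters ACTACAATT were at 5 summits, those of Cc2d1a, Nudt13, Pnkd, Pa2g4 and Pafah2, in no flank and at 0.130% of all promoters (exact McNemar test, adjusted p = 0.255). The looser element ACTAC followed 4 bases later by CCC, of which these 5 are part, was at 29 of 266 summits (10.9%, 7.70 to 15.2). It was in 0 of 532 flanking windows, which were centred 500 bp to either side. Windows at other distances were not all free of it, and the shares were higher next to the summit. On the plus strand, 5.26% of windows at 100 bp and 4.51% at −100 bp held it. At −200 bp the share was 2.26% and at 200 bp 0.752%. Farther out it was 1.13% at 600 bp and 0.752% at −400 bp, but 0 at −600 bp and 700 bp. Promoters of all genes held it in 1.29% of start windows, CpG-rich ones in 1.55% and two-way ones in 3.45%. Because it was picked from the sequences of these same peaks, its counts are a description and carry no test. It was at 0 of 69 shared promoter summits, which allows a share of up to 4.35%, at 1 of 1066 distal replicate 1-only summits (0.0938%) and at 0 of 37 promoter peaks called in replicate 2 only, which allows up to 8.11%.

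Within the replicate 1-only promoter peaks the element was at 19 CpG-rich, 9 intermediate and 1 CpG-poor promoters, and at 8 of 30 two-way promoters (26.7%, 14.2 to 44.4). It lay 17 bp from the summit at the median, and the summit lay within 250 bp of the start site in 27 of the 29. In 8 windows it occurred more than once. Only 1 of the 29 windows, that of Pafah2, also held WGATAR, so that 90 summits had one or the other and 176 had neither. The 29 peaks had 20 to 55 fragments (median 29) over a median background of 10, the latter above the 6.66 of all 266 peaks, and their median fold enrichment was 3.59. Of the peaks with 28 or more fragments, 15 of 71 (21.1%) had the element, against 0 of 83 with 19 or fewer. The part of the high local background was not tested. None of the 29 windows was in repeated sequence. The highest fold enrichments were at Prcc (8.31, 55 fragments), Btrc (5.32, 32 fragments) and Tmem43 (4.93, 47 fragments). Btrc encodes the substrate receptor of a ubiquitin ligase that degrades beta-catenin. The lowest was at Ifrd2 (2.45, 23 fragments).

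**Figure D3:**
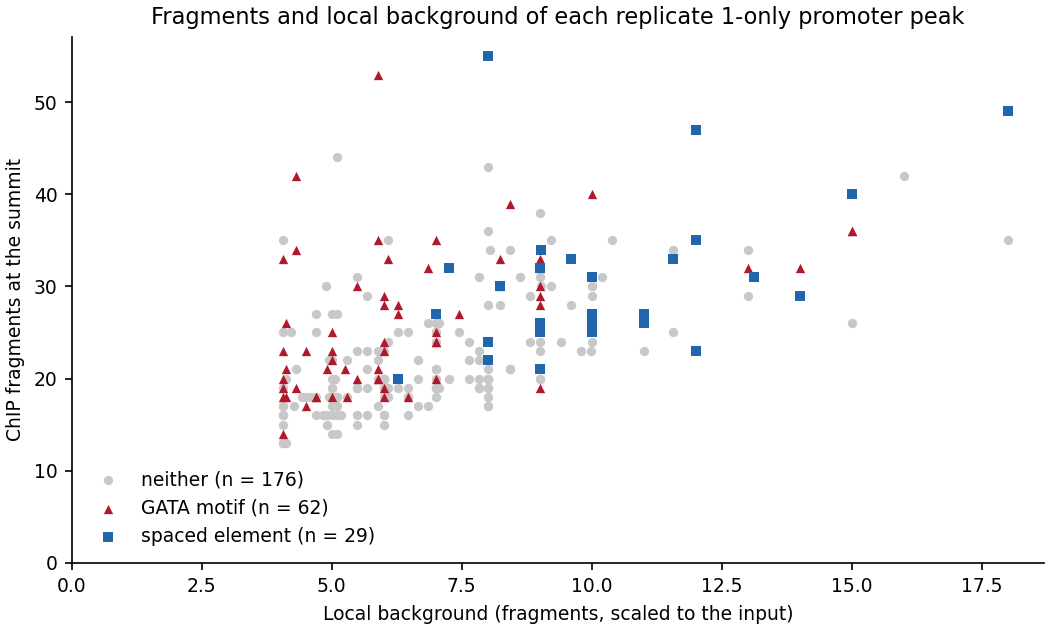
ChIP fragments at the summit against local background (fragments on the scale of the input) for each of the 266 replicate 1-only promoter peaks, marked by the GATA motif (62), the spaced element (29, of which 1 has both) or neither (176). Peaks with the spaced element lie to the right, at a median background of 10, and all have 20 fragments or more.

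**Figure D4:**
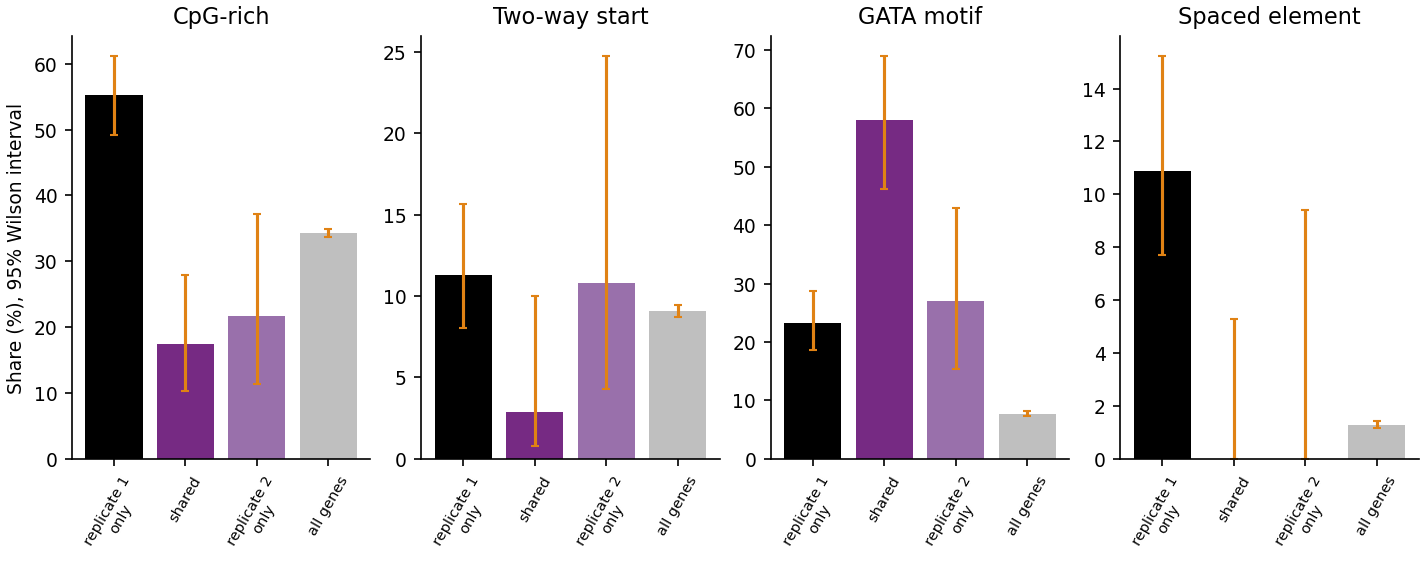
Share (%) of promoters that are CpG-rich or two-way, and of 100 bp windows with the GATA motif or the spaced element, in 266 replicate 1-only, 69 shared and 37 replicate 2-only promoter peaks (summit windows) and at the most upstream start of all protein-coding genes. Bars are shares and error bars 95% Wilson intervals, which cover counting error only, and the replicate 1-only peaks have the highest CpG-rich share (55.3%) and the highest share with the spaced element (10.9%).

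Promoter peaks called in replicate 2 only give a view of the same features that the selection did not use. There were 37, of which 8 (21.6%, 11.4 to 37.2) were CpG-rich, 22 (59.5%) CpG-poor and 4 (10.8%) two-way, and 10 (27.0%, 15.4 to 43.0) held WGATAR at the summit. Their CpG classes resembled those of the shared promoter peaks in number, while their GATA share lay nearer to that of the replicate 1-only peaks. These differences were not tested. The GATA share of replicate 2-only peaks was not split by CpG class. At CpG-poor promoters WGATAR was at 62.1% of replicate 1-only and 63.4% of shared summits. Replicate 2 was called without an input, and the uniqueness of windows at replicate 2-only summits was not measured.

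The genes came from many classes. Of 22380 protein-coding genes, 292 (1.30%) had a start site within 1 kb of one of the 266 peaks. The peaks were assigned to 257 nearest genes, of which Artn, Fam110c, Ifrd2, Lgals3bp, Llgl2, Rnf44, Uros, Vwf and Zfp697 had 2 peaks each. Counts per class are read beside the 1.30% of all genes and without a test, and a gene that shares its promoter with a neighbour may be counted for the neighbour's peak.

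Among blood and vascular genes, 4 of 44 listed blood regulators (9.09%, 3.59 to 21.2) had a peak, namely Nfe2 (fold enrichment 10.5), Sfpi1 (3.98), which encodes the myeloid factor PU.1, Etv6 (3.01), a repressor of the ETS family, and Nfe2l2 (2.997), a regulator of the response to oxidative stress. By comparison, 6 of the 44 had a shared promoter peak. Of 45 red cell and heme genes 3 had one (6.67%, 2.29 to 17.9), among them the heme synthesis enzymes Uros, with peaks of 5.76 and 4.74 at separate internal starts, and Cpox (5.12). The third was Ache (4.05), the acetylcholinesterase of nerve endings and red cell membranes. All 4 of these windows held WGATAR. Endothelial genes contributed 3 of 39 (7.69%, 2.65 to 20.3). They were the adhesion molecule Icam2 (5.24), the clotting protein Vwf (5.09 and 3.65) and the secreted factor Egfl7 (4.71). All of these peaks were at internal starts, 5294 bp inside the gene at Icam2, 6174 and 56776 bp at Vwf and 3850 bp at Egfl7. The weaker Vwf peak had 13 fragments, the lowest number among the 266. None of the 23 genes for SCL, its partners and the ETO family had a replicate 1-only promoter peak, which allows a share of up to 13.04%, whereas 4 of them had a shared one.

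Genes of other mesoderm and of chromatin were also present. Of 47 cardiac, paraxial and early mesoderm genes 3 had a peak (6.38%, 2.19 to 17.2). Pdgfra (4.08) encodes the receptor that marks paraxial and cardiac mesoderm, Smarcd3 (4.05) a cardiac subunit of the BAF remodelling complex and Foxc1 (3.78) a forkhead factor. Polycomb complexes gave 3 of 37 (8.11%, 2.80 to 21.3), with Phc2 (3.31), a subunit of PRC1, Jarid2 (3.21), a cofactor of PRC2, and Kdm2b (3.19), which ties a form of PRC1 to CpG islands. The peak of Kdm2b lay in its two-way promoter with Orai1. Chromatin regulators gave 7 of 176 (3.98%, 1.94 to 7.98), led by Brd1 (4.44), Smarcd3 and Bap1 (3.604), and Bap1 shares its peak with Phf7. Signalling genes gave 4 of 171, namely Hes1 (4.63), a target of Notch, Fgfr2 (4.55), Fgf3 (3.64) and Fgfr3 (3.63). The assigned starts of Pdgfra, Fgfr2 and Fgfr3 lay over 1 kb downstream of the most upstream one of their gene. That of Fgfr2 was CpG-poor, and its summit window held WGATAR.

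Housekeeping classes were mixed. Classes were matched by gene symbol, so a listed gene need not act in its class. The listed nuclear transport genes gave 3 of 63 (Tpr, Ranbp10 and Tnpo2) and RNA polymerase II and its general factors 3 of 99 (Taf11, Med12 and Gtf2f2). The Med12 peak was intronic and held WGATAR, at a CpG-poor internal start 14420 bp downstream of the most upstream one. Chaperones gave 3 of 113 (Cct4, Dnajc18 and Hspa8), translation factors 2 of 71 (Eef1d and Eif1ad) and aminoacyl-tRNA synthetases 1 of 36 (Gars). The list of cell cycle genes gave 4 of 199 (Cdc34, Cdk5r1 and Cdc42ep3 the highest). Of these, Cdk5r1 encodes an activator of CDK5 and Cdc42ep3 an effector of CDC42, neither of them a cell cycle gene by function. Vesicle traffic gave 5 of 287 (Trappc9, Arf5 and Rab3il1 the highest), ribosome biogenesis 1 of 53 (Nop16) and histones 1 of 80 (H2afy). The Rab3il1 peak was also at a CpG-poor internal start, 13347 bp downstream of the most upstream one. The listed proteasome and ubiquitin families (Psm, Ube, Usp, Fbx, Cul, Rnf and the like) gave 4 of 320, the highest of them Rnf167, Rnf44 and Fbxo31. March8 and Btrc, described above, are outside the families of that list. Zinc finger proteins gave 5 of 438 (Zscan22, Zfp697 and Zfp191 the highest), splicing 2 of 207 (Srsf7 and Srsf2) and the listed families of developmental transcription factors, such as Hox, Fox, Sox and Tbx, 2 of 228 (Foxc1 and Tbx4). Emx2 (5.51), a homeobox factor outside the listed families, also had a peak and is named after its value was seen.

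Of 84 ribosomal protein genes of the cytosol, 1 (1.19%, 0.210 to 6.44) had a peak, Rpl36al (3.09), through its two-way promoter with Mgat2. No peak was found at the 77 ribosomal protein genes of mitochondria, which allows a share of up to 3.90%, at 101 respiratory chain genes (up to 2.97%) or at 81 DNA repair genes (up to 3.70%). Immediate early genes (0 of 35, up to 8.57%) and pluripotency genes (0 of 26, up to 11.5%) had none either. Of 1497 olfactory, vomeronasal and taste receptor genes, which act in sensory cells, 1 (0.0668%), Tas2r126 (5.78), had a peak. 

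**Figure D5:**
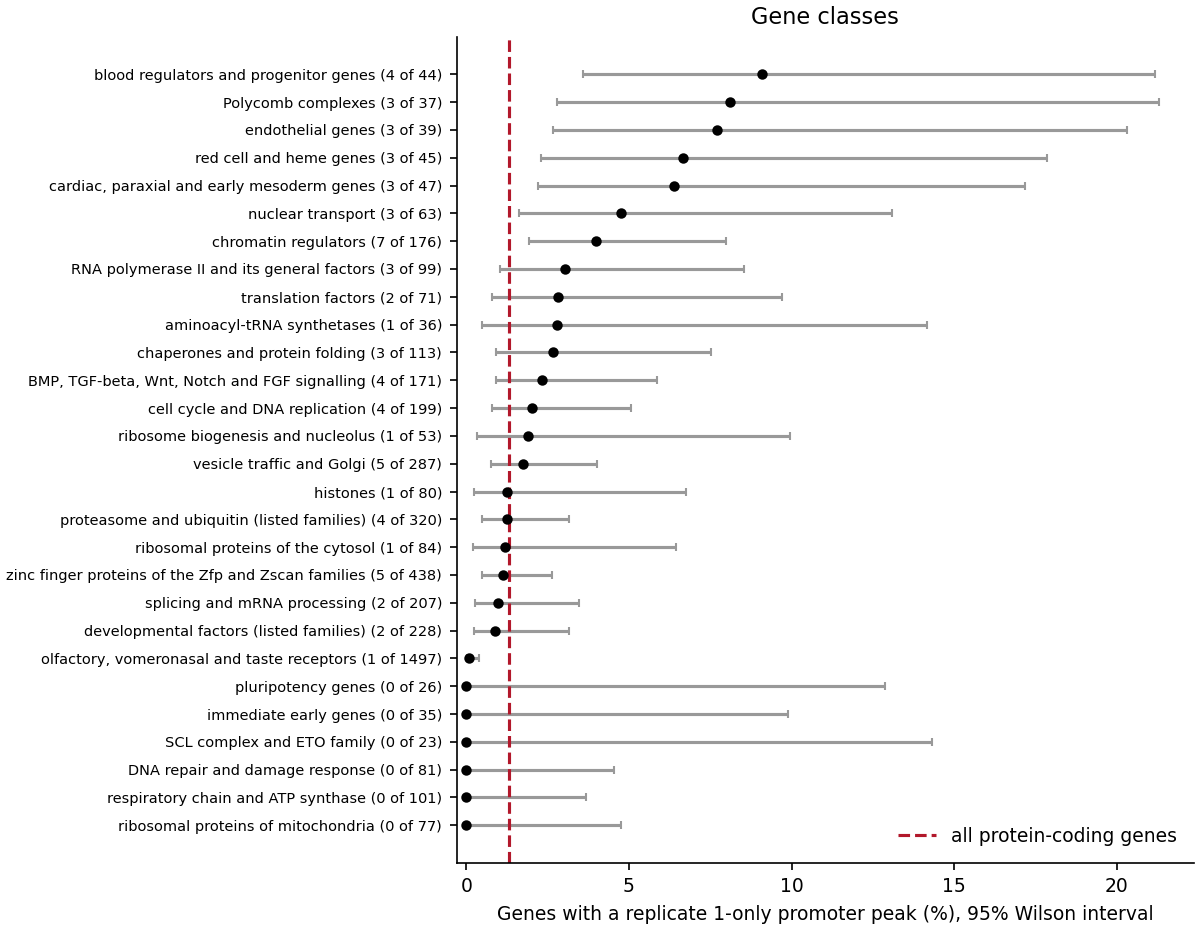
Share (%) of the genes of each of 28 classes with a start site within 1 kb of a replicate 1-only promoter peak, with 95% Wilson intervals and, in brackets, the number of genes with a peak and in the class. The dashed line marks the 1.30% of all protein-coding genes, and blood regulators (4 of 44), Polycomb (3 of 37) and endothelial genes (3 of 39) have the highest shares, each from 3 or 4 genes.

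Some peaks lay in repeated sequence or on chromosomes of high background. At 5 of 266 peaks (1.88%) fewer than 70% of the 24-base words of the summit window were unique in the genome, with 1.30% at Fyco1, which is named here for that value. Median local background was 11.0 fragments on chromosome 8 (16 peaks) and 8.82 on chromosome 1 (15 peaks), against 6.66 over all 266. Chromosome X, with 932 genes, had 2 peaks.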

How the data were processed

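The authors trimmed reads, aligned them to mm9 with Bowtie and called peaks with MACS2 (version 2.0.10), per the labels and the study's methods, in replicate 1 against an input and in replicate 2 without one. The deposited lists give a score, a fold enrichment (a ratio to local background) and its p-value and q-value as −log10. Their names carry the same experiment number, and whether they are separate immunoprecipitations was not settled here. Summit fragments and local background were solved from the fold enrichment and p-value under a Poisson model, which gave a whole number for 100% of the peaks of each list at a replicate 1 scale of 1.34, checked on simulated data. The input and a list covering the series were not used here.

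Start sites, exons and gene types came from the GENCODE annotation of mm9 (22380 protein-coding genes), and sequence from a genome of the same build. CpG windows of 500 bp were moved in steps of 5 bp from 700 bp before to 200 bp after the start site. Motifs were counted on both strands in 100 bp. The larger McNemar p of both flanks was used, with Benjamini-Hochberg adjustment over 19 motifs, and differences between peak classes over 5. Wilson and Newcombe intervals (95%) cover counting error only, and a count of 0 is taken to allow 3. Peaks are not replicates of a condition, so that any test over them compares these libraries alone. Named genes were the 10 highest fold enrichments, the first 3 of each of 28 gene classes (all of the blood, heme, endothelial, mesoderm and Polycomb classes), those nearest to each limit, and the first 3 two-way, GATA-bearing and CpG-poor peaks. Members, motifs and classes were chosen with earlier results of these data known. Symbols missing from the annotation were sought under their older names in RefSeq, as Spi1 under Sfpi1. This search, a wider pattern for ribosomal protein symbols, the spaced element, the split by CpG class and the genes named for it, for a repeated window or for having 2 peaks were added after the data were seen.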

Additional observations from a re-analysis of the deposited data

How the results depend on the processing

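Results were recomputed with other promoter limits, summits in place of midpoints, a q-value of at most 0.001, a wider zone for shared peaks, other windows, flanks, CpG and partner definitions, and with the split by CpG class added after the data were seen. No called result changed direction. With a promoter limit of 0.5 kb, 1 motif was called at the summits, WGATAR was at 17.1% (exact test, adjusted p = 0.297), the CpG-rich share was 64.4% and the two-way difference 9.98 percentage points (adjusted p = 0.104). With flanks 1000 bp away WGATAR, at 23.3% of summits, had an adjusted p of 0.169. With a CpG ratio above 0.6 and GC above 50% the CpG-rich share was 62.4%. With partners of any gene type the two-way difference was 8.49 points (exact test, adjusted p = 0.0828). The cause of these changes was not tested. In CpG-poor promoters alone the WGATAR difference from shared promoter peaks was −1.35 points (exact test, adjusted p = 1), and in intermediate ones −30.0 (adjusted p = 0.0522), with fewer peaks in each. Without replicate 2, all 335 replicate 1 promoter peaks were taken, the CpG-rich share was 47.5%, the two-way share 9.55% and the WGATAR share 30.4%. Without replicate 1 no peak could be selected. The window of 200 bp gave 3 motifs. Over all settings the WGATAR difference ran from −56.1 to −31.9 points before the split by class, and the CpG-rich difference from 34.2 to 47.7. At a median of 22 fragments, a peak missed in 1 library cannot be told apart from a site bound less in it.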
